A study of Mus musculus with 3 samples.

Results

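The genes described here are 10 members of the BCL2 family of apoptosis regulators, taken by gene symbol from the platform annotation of the array: the pro-survival genes Bcl2, Bcl2l1 and Mcl1, the BH3-only genes Bcl2l11, Bid, Bad, Bbc3 and Pmaip1, and the effectors Bax and Bak1. Of these 10, 9 had a probe, with 25 probes among the 25697 of the table, and Bax was not analysed here. The cells were 4T1, a mammary carcinoma line from BALB/c mice, carrying GFP and implanted in the mammary pad of female Balb/C mice aged 10 to 12 weeks. Sorted cancer cells from the primary breast tumour (PCC), the systemic circulation (CCC) and metastatic foci in lung (MCC) gave 1 array each, 3 arrays in all. All groups share the line, the label, the implantation, the strain and the sex. How many mice each array stands for is not stated in these sources, and 1 implanted line limits the groups as a model. With 1 array a group there is no spread between replicates and no test, so every value below describes the array that carries a label.

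BCL2 family proteins decide whether the outer mitochondrial membrane is opened, the step that releases cytochrome c and starts the caspase cascade. Pro-survival proteins (BCL-2, BCL-XL from Bcl2l1, MCL-1) hold the effectors BAX and BAK in check, and BH3-only proteins either occupy the pro-survival proteins or activate the effectors directly. BIM (Bcl2l11), PUMA (Bbc3) and NOXA (Pmaip1) are largely controlled through transcription, whereas BID is activated by caspase cleavage, BAD by loss of phosphorylation, and MCL-1 protein turns over rapidly, so RNA levels cover only a portion of their control.

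Between 41.0% and 44.6% of probes were detected on an array, at a detection p-value under 0.01. Values are log2 intensities after background correction and quantile normalization, and each gene is given by its brightest detected probe. Genes of other cell types were detected on every array, in unequal numbers. Of 10 measured lymphocyte genes 5 were detected on PCC, 9 on CCC and 10 on MCC, with summed normalized intensities of 819, 4071 and 26292. Of 9 endothelial genes 5, 8 and 8 were detected, with sums of 1172, 2583 and 13849, and of 7 fat cell genes 0, 1 and 6, with sums of 158, 289 and 30673. All 9 macrophage genes were detected on PCC and CCC and 8 on MCC, with sums of 4847, 24015 and 10070. Lyz2, at a log2 value of 12.86, made most of the MCC sum, and 5 of 8 macrophage genes were lower on MCC than on PCC, with a median of -0.50. Of 8 neutrophil genes 5 were detected on each array (sums 4275, 2714 and 4430). Ltf, at 11.99, made most of the MCC sum, and 3 of 4 neutrophil genes detected on PCC and MCC were lower on MCC, S100a8 by 28.4-fold and S100a9 by 29.6-fold. Of 8 fibroblast genes 6, 8 and 8 were detected (sums 11433, 11669 and 18613). Dcn, at 12.83, 12.69 and 13.38, made most of each sum. On CCC Col1a1, Col3a1 and Thy1 were 4.32-fold, 6.99-fold and 4.85-fold higher than on PCC, and Dcn, Pdgfra and Pdgfrb were lower. Col1a2 and Lum were at least 5.20-fold and 3.81-fold higher there. Of 6 detected on PCC and MCC, 5 were higher on MCC and Pdgfra was 6.68-fold lower. Of 3 red cell genes 2, 1 and 2 were detected, with sums of 1222, 1025 and 7015. Of 9 epithelial genes, 4, 4 and 9 were detected (6384, 6616 and 9702). The basal keratins Krt14 and Krt5, and also Krt19 and Cldn7, were detected on MCC and not on PCC or CCC. Of 4 epithelial genes detected on PCC and MCC, 3 were at least 2-fold higher on MCC and Krt8 was 1.78-fold lower. The lung epithelium list had 2, 2 and 3 of 8 genes detected (585, 952 and 1871), and Sftpc, Sftpb, Sftpa1 and Scgb1a1 were detected on 0 arrays. On MCC Abca3 was 3.40-fold, Cyp2f2 at least 2.88-fold and Ager at least 2.60-fold higher than on PCC. Foxj1 was detected on PCC and CCC and not on MCC, where it was at least 1.30-fold lower than on PCC. In bulk RNA, fewer cells of a type and less RNA per cell cannot be told apart.

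The upstream sequences below belong to the 3 family genes that were at least 2-fold lower on MCC than on PCC (Bcl2l1, Bcl2l11 and Bid) and to Mcl1, the member furthest in the other direction. They are the 250 bases before the most upstream RefSeq start of each gene, from RefSeq on build GRCm38.p6, written 5′ to 3′ on the gene's strand. Capitals mark matches, on either strand, to the GC box (GGGCGG), the CCAAT box (CCAAT) and the forkhead motif of FOXO factors (GTAAACA), none of which overlap here.
Bcl2l11 (chr2:128125788-128126037, plus strand): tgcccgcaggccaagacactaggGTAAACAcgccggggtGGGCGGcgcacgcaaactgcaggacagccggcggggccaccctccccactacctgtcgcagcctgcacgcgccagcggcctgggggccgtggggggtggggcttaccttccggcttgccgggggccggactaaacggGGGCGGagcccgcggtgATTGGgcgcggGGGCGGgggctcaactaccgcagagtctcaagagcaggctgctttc
Bid (chr6:120916825-120917074, minus strand): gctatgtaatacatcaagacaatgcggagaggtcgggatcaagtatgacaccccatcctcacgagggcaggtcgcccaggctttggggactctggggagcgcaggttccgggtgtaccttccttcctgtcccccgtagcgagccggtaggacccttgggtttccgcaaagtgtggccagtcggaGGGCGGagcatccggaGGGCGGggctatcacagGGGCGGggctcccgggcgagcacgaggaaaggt
Bcl2l1 (chr2:152831729-152831978, minus strand): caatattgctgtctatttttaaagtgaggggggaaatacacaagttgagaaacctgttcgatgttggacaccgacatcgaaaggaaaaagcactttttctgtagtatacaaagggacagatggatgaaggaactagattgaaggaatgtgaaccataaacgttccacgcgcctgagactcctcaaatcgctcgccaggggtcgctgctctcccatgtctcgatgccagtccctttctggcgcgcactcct
Mcl1 (chr3:95658471-95658720, plus strand): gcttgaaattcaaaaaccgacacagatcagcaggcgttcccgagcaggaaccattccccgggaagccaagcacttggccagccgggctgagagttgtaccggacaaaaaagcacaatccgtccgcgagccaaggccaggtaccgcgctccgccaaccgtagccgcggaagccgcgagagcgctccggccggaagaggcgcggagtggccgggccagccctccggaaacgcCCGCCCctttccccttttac

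No motif searched was found in all 3 windows of the genes that were lower on MCC. The Bcl2l11 window holds 3 GC boxes, 1 CCAAT box and 1 forkhead motif, the Bid window 3 GC boxes and the Mcl1 window 1, while the Bcl2l1 window holds no match to any of the 7 motifs searched and has a GC content of 47.6%, against 72.0% for Bcl2l11. Of all 32851 RefSeq windows of this length, 32.7% hold a GC box, 33.8% a CCAAT box and 3.17% a forkhead motif, and the median GC content is 52.4%. Another Bcl2l1 start has a window with the E2F motif TTTCGCGC, found in 0.256% of all windows. The other motifs searched, on both strands, were the cAMP response element (TGACGTCA), the E-box (CACGTG) and the TATA box (TATAAA), held by 1.55%, 6.02% and 12.4% of windows. These are matches of letters and not sites, and windows were matched for 9 of the 10 members (15 windows), Pmaip1 being the other.

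Bcl2, the founding pro-survival gene, differed little between arrays, and its probes disagreed by transcript. Its brightest probe had a deposited intensity of 386 on PCC, 635 on CCC and 259 on MCC, and normalized log2 values of 8.55, 9.03 and 8.64. CCC was thus highest, 0.48 above PCC on the log2 scale (1.39-fold), and MCC was 0.09 above PCC. For scale, probes of the same gene scattered with an SD of 0.26 in CCC minus PCC (1784 genes with several probes), 0.43 in MCC minus PCC (1560 genes) and 0.51 in CCC minus MCC (1670 genes), a spread between probes and not between replicates. The excess of Bcl2 on CCC over PCC was larger than that spread, and the distance of MCC from either other array was not.

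Bcl2 has 8 probes, 5 annotated to the RefSeq transcript NM_009741 and 3 to NM_177410. Of the first group 3 were detected on PCC and CCC, and all 3 were higher on CCC than on PCC, by 0.22 to 0.55. Of the second group 2 were detected on both, and both were lower on CCC, by -0.13 and -0.21. On MCC all 5 of these probes were higher than on PCC, by 0.09 to 0.58 in the first group and by 0.53 and 0.95 in the second. The widest gap came from an NM_177410 probe at 7.94, 7.74 and 8.89 on PCC, CCC and MCC. A value for Bcl2 between CCC and MCC therefore depends on the probe, at 0.38 for the brightest and -1.15 for that NM_177410 probe. Bcl2 is abundant in resting lymphocytes, and lymphocyte genes were higher on MCC, as given above. Their part in the Bcl2 values was not tested.

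Bcl2l1, which encodes BCL-XL, was lower on MCC than on the other arrays. Its brightest probe gave deposited intensities of 240 on PCC, 262 on CCC and 49.0 on MCC, and normalized log2 values of 7.94, 7.79 and 6.26. PCC and CCC lay close together, 0.15 apart, and MCC stood 1.68 below PCC (3.21-fold lower) and 1.53 below CCC (2.89-fold). The second probe, at 6.10, 5.79 and 4.67, and the third, at 5.94, 5.41 and 4.76, were dimmer, and neither was detected on MCC. All 3 probes thus had their lowest value on MCC.

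Mcl1, whose short-lived protein buffers BIM and NOXA, had 1 probe and went the other way. The deposited intensities were 3287 on PCC, 4615 on CCC and 2940 on MCC, and the normalized log2 values 11.49, 11.83 and 12.36. The order after normalization was PCC, CCC and MCC from lowest to highest, with CCC 0.34 and MCC 0.87 above PCC (1.27-fold and 1.82-fold). The MCC array was dimmer as a whole, with a mean intensity of 232 against 410 on PCC and 462 on CCC, and its deposited Mcl1 intensity was the lowest of the 3. Without normalization between arrays Mcl1 was 0.16 lower on MCC than on PCC, when the median of all genes was 0.75 lower. Set against the median of all genes under the same setting, Mcl1 was 0.59 to 1.06 higher on MCC over the setting used here and 8 alternatives.

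**Figure D1:**
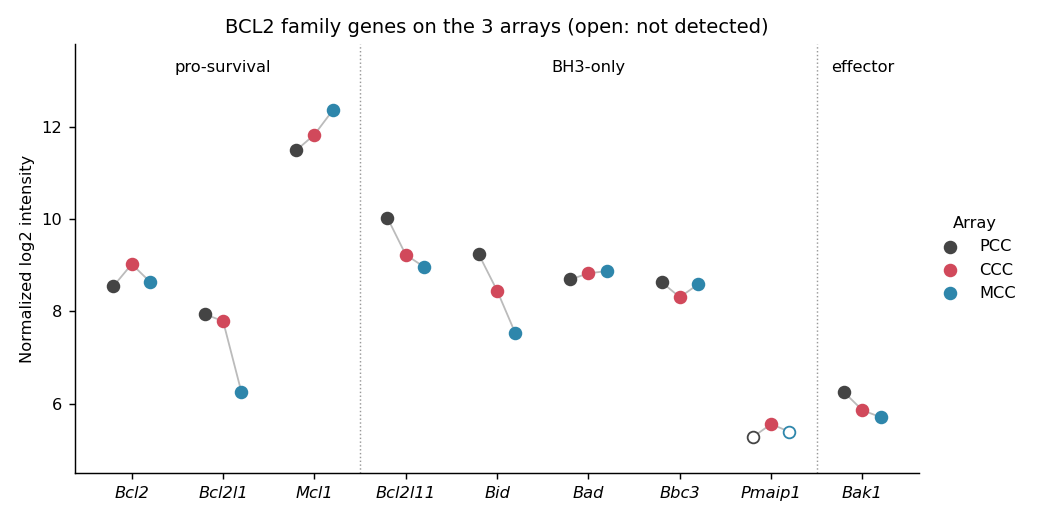
Normalized log2 intensity (vertical axis) of the brightest probe of 9 BCL2 family genes on the arrays PCC, CCC and MCC, 1 point an array, with open points where the probe was not detected at a detection p under 0.01. Bcl2l1, Bcl2l11 and Bid were lowest on MCC (6.26, 8.97 and 7.53), Mcl1 was highest there (12.36), and heights of different genes come from different probes and are not comparable.

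Among the BH3-only genes, Bcl2l11 and Bid were highest on the primary tumour array and lowest on the lung array. Bcl2l11, encoding BIM, the activator that binds every pro-survival member, gave deposited intensities of 1148 on PCC, 731 on CCC and 324 on MCC. Its normalized log2 values were 10.03, 9.23 and 8.97. CCC was 0.80 below PCC (1.74-fold lower) and MCC 1.06 below (2.08-fold lower), and the 0.26 between CCC and MCC was smaller than the spread between probes. The other 3 probes of Bcl2l11 were also highest on PCC. One of them, the only probe annotated to NM_009754, was detected on all 3 arrays, at 7.73, 7.41 and 6.90. Another, on NM_207680, was detected on PCC alone, at 6.44.

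Bid, the link from death receptors to mitochondria, had deposited intensities of 642 on PCC, 416 on CCC and 120 on MCC, and log2 values of 9.24, 8.45 and 7.53. The steps were 0.78 from PCC down to CCC (1.72-fold lower) and 0.93 from CCC down to MCC, and MCC was 1.71 below PCC (3.27-fold lower). All 3 arrays were separated by more than the spread between probes of a gene. Its second probe was detected on 0 arrays.

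**Figure D2:**
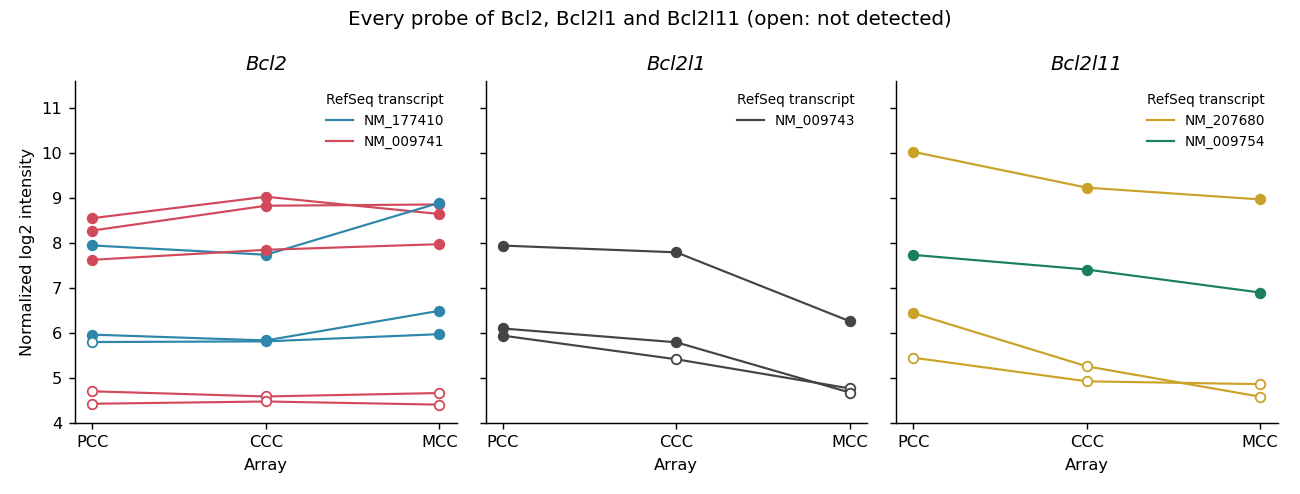
Normalized log2 intensity (vertical axis) of every probe of Bcl2 (8 probes), Bcl2l1 (3) and Bcl2l11 (4) on the 3 arrays, coloured by the RefSeq transcript the probe is annotated to, with open points where the probe was not detected. All 3 Bcl2l1 probes were lowest on MCC and all 4 Bcl2l11 probes highest on PCC, whereas the Bcl2 probes of the 2 transcripts took different courses from PCC to CCC.

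Bad, Bbc3 and Pmaip1 did not share that course. Bad, the sensor of growth factor signalling, had deposited intensities of 429, 546 and 303 and log2 values of 8.69 on PCC, 8.83 on CCC and 8.88 on MCC. All of its differences were within the spread between probes. Bbc3, encoding the p53 target PUMA, had intensities of 410, 378 and 251 and log2 values of 8.64, 8.31 and 8.59, so CCC was 0.32 below PCC and MCC only 0.05 below. Its other 2 probes were detected on MCC in 1 case and on 0 arrays in the other. Pmaip1, encoding NOXA, the partner of MCL-1, was at the edge of detection. Its brighter probe had intensities of 19.9, 40.0 and 21.7 with detection p-values of 0.0551, 0.00752 and 0.0175, so it was detected on CCC only and no fold is given.

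Of the effectors, which form the pore itself, only Bak1 was measured. Its probe was dim, with deposited intensities of 56.0 on PCC, 54.3 on CCC and 30.0 on MCC and log2 values of 6.25, 5.86 and 5.71, where the lowest detected values on these arrays were 5.88, 5.54 and 5.60. CCC was 0.39 and MCC 0.54 below PCC, and a dim probe of this kind makes the size uncertain. Relative to all genes, the sign of Bak1 on MCC changed with the setting, from -0.52 to 0.11.

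Setting CCC against PCC asks how the balance of survival and death genes differs between cancer cells in blood and in the tumour. Among 8 members that both arrays detected, 0 were at least 2-fold apart, while 8.63% of all 7286 genes detected on both were. At a size of 1.5-fold, chosen after the values were seen, Bcl2l11 and Bid were lower and 0 members were higher, where 14.4% of all genes were lower and 10.4% higher by as much, 24.7% in all. The 3 pro-survival genes had a median of 0.34 on the log2 scale (Bcl2 0.48, Mcl1 0.34, Bcl2l1 -0.15). The 5 pro-death genes detected on both arrays had a median of -0.39, with 4 of them lower and Bad 0.13 higher. That median is the value of Bak1, whose probe was dim. The median of all genes was -0.10. With Pmaip1, detected on CCC alone, the pro-death median was -0.36, and the pro-survival median lay 0.70 above it. That gap was between 0.53 and 0.75 under 8 alternative settings, not all of them independent. A detection p under 0.05 and no filter used the same members and values in this pair. Percentile scaling and no normalization give equal gaps by construction. These agreements add no support. On CCC 9 macrophage genes had a median difference of 2.32 and 5 lymphocyte genes of 2.66, and their part in these values was not tested.

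Setting MCC against PCC asks the same of cells that had grown in lung. Among 8 members that both arrays detected, 3 were at least 2-fold lower (Bid, Bcl2l1 and Bcl2l11) and 0 were higher, while 35.2% of all 6829 genes passed that size, 21.1% as lower and 14.2% as higher. The share of members is near that of all genes and is not a result about the family. At 1.5-fold 4 of 8 members passed, with Mcl1 higher added, against 56.6% of all genes. The lower genes came from both sides of the balance, 1 pro-survival and 2 BH3-only. The pro-survival median was 0.09, which is the value of Bcl2, since Mcl1 at 0.87 and Bcl2l1 at -1.68 lay on either side of it. The 5 pro-death genes had a median of -0.54, which is the value of the dim Bak1 probe, and the median of all genes was -0.16. The gap between the classes was 0.63, and it was 0.13 under 75th percentile scaling or without normalization between arrays and 0.98 when the detected probes of a gene were averaged. On MCC 5 lymphocyte genes had a median difference of 5.07 and 5 endothelial genes of 3.22. Of 7 fat cell genes, 6 were detected on MCC and 0 on PCC. The part of these cell types in the values was not tested.

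The comparison of CCC with MCC follows from the other comparisons, which share the PCC array. Bcl2l1 was the 1 member of 8 at least 2-fold apart, higher on CCC, against 33.8% of all 7313 genes. Bid was 0.93 higher on CCC and Mcl1 0.53 lower. At 1.5-fold Bid passed as well, 2 of 8 members against 55.4% of all genes. The pro-survival median was 0.38, the value of Bcl2. The median of the 5 pro-death genes detected on both arrays was 0.15, the value of the dim Bak1 probe. With Pmaip1, detected on CCC alone, the latter was 0.16 and the gap 0.23. Over 8 alternatives that gap ran from -0.45, when detected probes were averaged, to 0.53, under 75th percentile scaling or without normalization. At the low end the averaged Bcl2 value was 0.29 lower on CCC than on MCC.

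**Figure D3:**
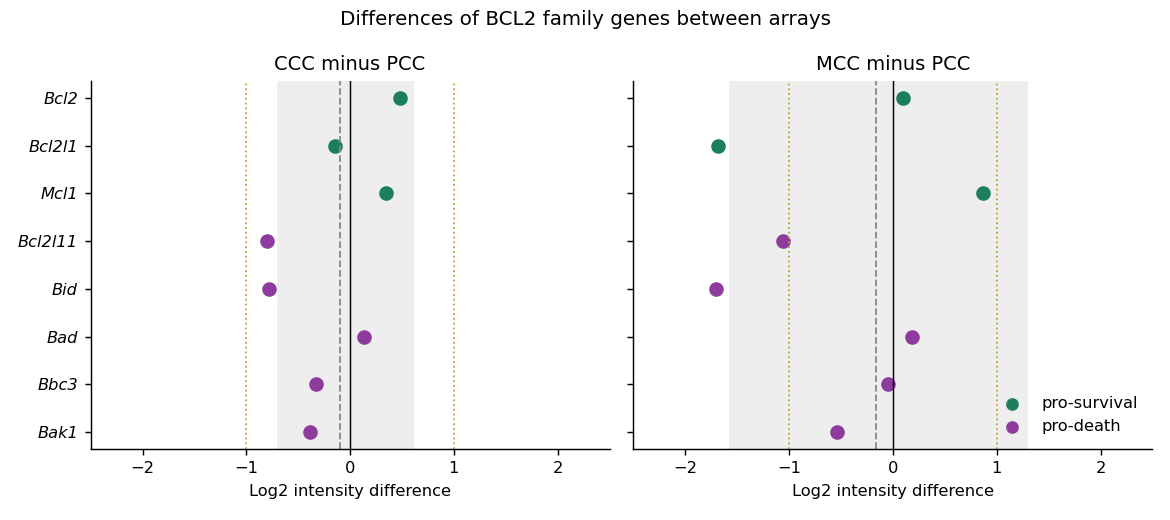
Difference in normalized log2 intensity (horizontal axis) of 8 BCL2 family genes that both arrays detected, with pro-survival genes in green and pro-death genes in purple. Grey bands span the 10th to 90th percentile of all genes (-0.69 to 0.60 for CCC minus PCC, -1.57 to 1.29 for MCC minus PCC), dashed lines are their medians and dotted lines mark 2-fold. Bcl2l11 and Bid lie below the band on the left and Bid and Bcl2l1 below it on the right.

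On CCC some other BCL2 relatives lay further from PCC than any member did. Of 16 listed, 13 had a probe and 8 were detected on PCC and CCC, of which 2 were at least 2-fold higher and 1 lower, where 8.63% of all genes passed that size. Bcl2a1c and Bcl2a1d, near-identical copies of the A1 gene that blood cells express, gave log2 values of 6.21 and 5.98 on PCC, 8.41 and 7.64 on CCC and 6.91 and 6.53 on MCC. They were 4.62-fold and 3.16-fold higher on CCC than on PCC, and signal cannot be assigned to one copy. Macrophage genes were highest on the same array, and their part was not tested. Bmf, a BH3-only gene tied to loss of attachment, was at 7.40 on PCC, 6.28 on CCC and 7.86 on MCC, so 2.17-fold lower on CCC than on PCC and 2.99-fold lower than on MCC. Bcl2l12 had a like course at 6.78, 5.84 and 6.92, or 1.93-fold lower on CCC than on PCC.

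On MCC the relatives past 2-fold against PCC were Bok and Bik. Bok, a BAX-like gene, was at 10.31 on PCC, 10.49 on CCC and 8.89 on MCC, 2.68-fold lower on MCC than on PCC. Bik, a BH3-only gene of the endoplasmic reticulum, was detected on MCC alone, at 8.07, and was at least 4.56-fold higher than on PCC and at least 5.78-fold higher than on CCC. Bcl2l2, encoding the pro-survival BCL-W, was 0.39 lower on CCC and 0.46 lower on MCC than on PCC. Bnip3l, a mitophagy receptor induced by low oxygen, was 0.55 lower on both. Of 8 relatives detected on PCC and MCC, 1 was at least 2-fold apart, where 35.2% of all genes were. Over the relatives detected on both arrays the median was -0.25 on CCC and -0.16 on MCC, against PCC. The medians of all genes were -0.10 and -0.16, so the MCC value is that of all genes.

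The other listed steps of apoptosis, from death receptors to caspases, held no 2-fold difference between CCC and PCC among genes that both arrays detected. Of 7 genes of the release step detected on both arrays, 7 of the list of caspases and Apaf1, 3 inhibitors of apoptosis and 4 death receptor genes, 0 were 2-fold apart from PCC, where 8.63% of all genes were. Most genes differed little in this pair, so this is not a result about these steps. Of those 7 caspase and Apaf1 genes 3 were higher and 4 lower, from -0.22 for Casp12 to 0.42 for Casp4, and the apoptosome scaffold Apaf1 was at -0.01. Cycs, which encodes cytochrome c, passed detection on CCC but missed it on PCC, and was higher by at least 1.63-fold. Among death receptor genes all 4 were higher on CCC, by 0.13 to 0.48, where 40.5% of all genes were higher. For Tnfrsf10b, the TRAIL receptor at the top of that range, the 3 dimmer detected probes were lower, by -0.54 to -0.82.

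On MCC these groups went in both directions. The mitochondrial channel genes Vdac3 and Vdac1 were 3.05-fold and 2-fold lower than on PCC, and Diablo, an antagonist of the inhibitors of apoptosis, was 0.57 higher. Casp1, the inflammatory caspase, was 4.10-fold lower, Casp12 was detected on PCC and not on MCC, and Casp6 and Apaf1 were 0.90 and 0.92 lower. The dimmer probes of Casp6 and Apaf1 were 0.37 and 1.11 lower. Birc5, the mitotic inhibitor of apoptosis survivin, was at 10.17 on PCC, 10.40 on CCC and 7.72 on MCC, 5.48-fold lower on MCC than on PCC. Birc2, a ubiquitin ligase of TNF signalling, was at 10.24, 10.14 and 11.96 and 3.30-fold higher. The death receptor Fas was 2.94-fold higher, Tnfrsf1a 2.05-fold lower. A dimmer probe detected on all 3 arrays was 0.45 higher for Fas and 0.67 lower for Tnfrsf1a. Both folds, and their place in the count past 2-fold, thus depend on the probe. The counts past 2-fold were 2 of 7 for the release step, 1 of 6 for the caspase and Apaf1 list, 2 of 3 for the inhibitors and 2 of 4 for death receptors, where 35.2% of all genes passed.

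**Figure D4:**
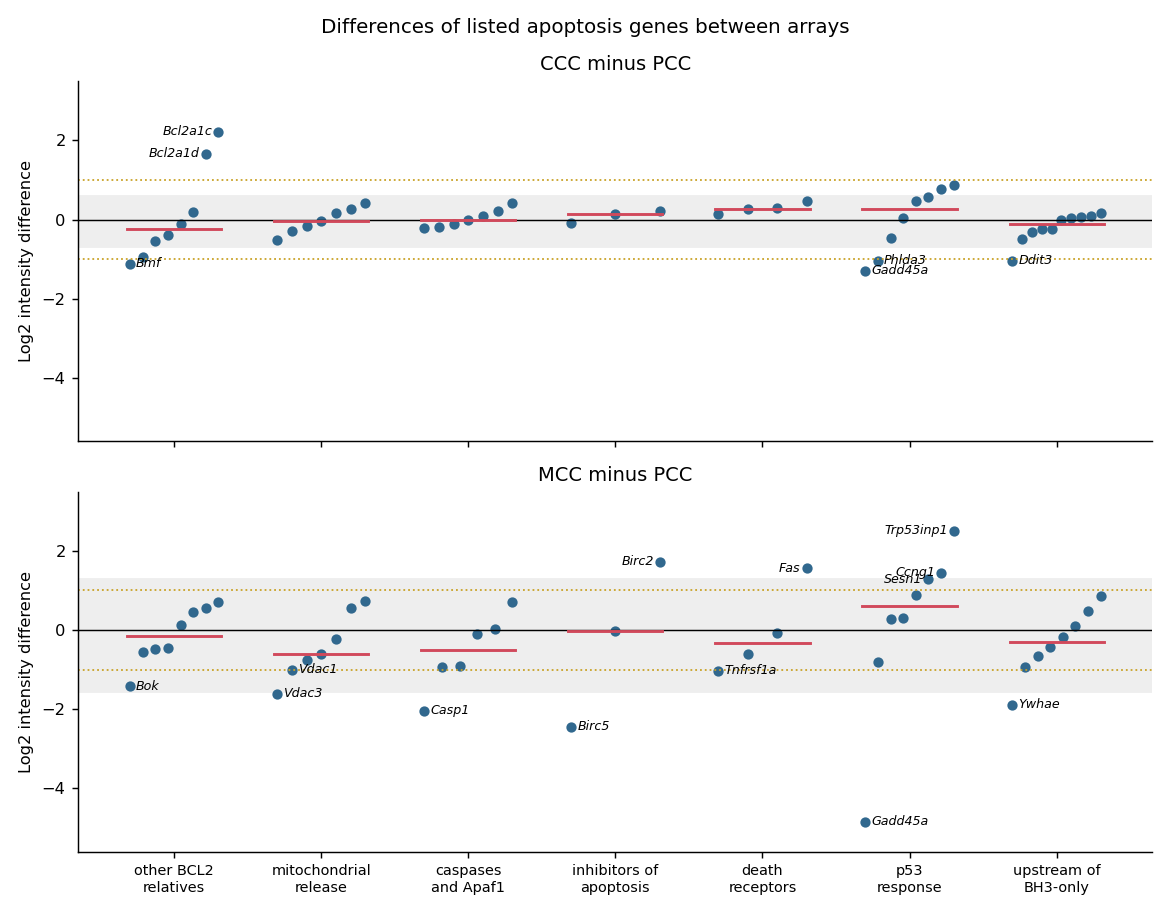
Difference in normalized log2 intensity (vertical axis) of the listed genes that both arrays detected, 1 point a gene, by group. Red bars are group medians, grey bands span the 10th to 90th percentile of all genes, dotted lines mark 2-fold, and genes past 2-fold are named. On CCC the named genes include Bcl2a1c (2.21) and Bmf (-1.12), and on MCC Gadd45a lies lowest at -4.84.

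Genes of the p53 response and listed regulators of the BH3-only genes went both ways. Of 8 genes of the p53 response detected on PCC and CCC, 5 were higher and 3 lower on CCC (40.5% of all genes were higher), with Gadd45a 2.44-fold and Phlda3 2.07-fold lower. On MCC, 6 of 8 were higher than on PCC, with a median of 0.60, where 43.4% of all genes were higher and their median was -0.16. Trp53inp1 was 5.68-fold, the cyclin gene Ccng1 2.73-fold and Sesn1 2.43-fold higher, and the cell cycle inhibitor Cdkn1a 0.89 higher. The other 2 probes of Ccng1 were 0.11 higher and 0.33 lower on MCC, so its fold depends on the probe. Gadd45a, also induced by stress without p53, was at 13.00 on PCC, 11.71 on CCC and 8.17 on MCC, 28.6-fold lower on MCC than on PCC. Bbc3, a p53 target itself, was within 0.05 of PCC on MCC. Lymphocyte, endothelial and fat cell genes were higher on MCC, as given above, and their part in these values was not tested. The activity of p53 was not tested either.

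Foxo1, a forkhead activator of Bcl2l11 transcription, was at 8.92 on PCC, 8.43 on CCC and 9.40 on MCC. Foxo3 was detected on 0 arrays. Bcl2l11 was lower on CCC and MCC than on PCC, and the part of these factors was not tested. Ddit3, the stress factor CHOP that induces Bcl2l11 and Bbc3, was 2.06-fold lower on CCC than on PCC and 0.18 lower on MCC. Chac1 and Trib3, targets of the same stress response, were detected on PCC and CCC and not on MCC, at least 19.5-fold and 2.62-fold lower on MCC than on PCC. Ywhae, 1 of the 14-3-3 proteins that hold phosphorylated BAD in the cytosol, was 3.73-fold lower on MCC. Ywhaz was at the same value on PCC and CCC and 0.66 lower on MCC. Huwe1, a ubiquitin ligase of MCL-1, was 0.32 lower on CCC and 0.94 lower on MCC. Of 10 listed regulators detected on PCC and CCC 1 was at least 2-fold apart, where 8.63% of all genes were. Of 8 detected on PCC and MCC 1 was, where 35.2% of all genes were. Whether these genes regulate the members here was not tested.

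The genes nearest to Bid and Bcl2l1, the members with the widest range over the arrays (1.71 and 1.68), were sought among 6753 genes detected on all 3 arrays. Likeness was the Euclidean distance between the pair of differences from PCC on the log2 scale. Nearest to Bid were Sccpdh (distance 0.04), Selenbp2 (0.09) and Card10 (0.09), and 4 genes lay within 0.1. Nearest to Bcl2l1 were Siva1 (0.02), Thyn1 (0.02) and Nmd3 (0.03), with 28 genes within 0.1. With 3 arrays such neighbours describe these arrays only.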

How the data were processed

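Total RNA of 3 samples, 1 array a group, was hybridised as biotin-labelled cRNA to Illumina mouse BeadChips, per the labels' protocols. Per the submitters' processing notes, GenomeStudio made the deposited probe intensities, with its version unstated. A share of 24.0% to 28.3% of them is negative, which shows that the authors' values had background removed. The file headers name a deposited detection p-value per probe and array. In the authors' second table each column is linear in that array's intensities (largest residual 0.0131) on a linear scale, not centred, in the same direction, with medians of 42.9, 32.0 and 35.1, and by what method is not stated.

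Intensities were processed with neqc of limma 3.58.1 in R 4.3.3 (normexp background from the detection p-values, offset 16, quantile normalization, log2). Of 25697 probes 23978 had 1 gene symbol, and the other 1719 were left unnamed here. The text names genes by their gene ID in RefSeq, matched for 23962 probes. A gene was detected at a detection p under 0.01 and represented by its detected probe with the highest mean. Where 1 array of a pair missed a gene, the fold is a lower bound, set against the lowest detected value of that array or, if higher, the gene's own value. Differences were counted at 2-fold among genes detected on both arrays. The number of arrays limits the precision.

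The members and lists were chosen with earlier results of these data known. The rule for named genes took all members with every probe, listed genes, and the 3 nearest genes of the 2 members of widest range. Counting was tested on simulated data. Counts and plots were made in Python 3.11.15 (numpy 2.4.6, pandas 2.3.3, matplotlib 3.10.9). Alternatives were an offset of 50, no background correction, 75th percentile scaling, no normalization, the authors' table with a floor of 16, a detection p under 0.05, no filter, and the mean of detected probes.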

Additional observations from a re-analysis of the deposited data

How the results depend on the processing

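Over 24 differences of single members (8 members, 3 pairs) and 8 alternatives, 179 of 192 values kept their sign and 174 stayed within the spread between probes of a gene. A detection p under 0.05 and no filter kept the same normalized values and brightest probes, so their member differences equal the main ones. The mean of detected probes likewise returned the main values of Bad, Bid, Bak1 and Mcl1. These agreements were fixed in advance and add no support. Bid, Bcl2l1 and Bcl2l11 were at least 2-fold lower on MCC than on PCC under all 8. Bcl2l11 was close to that size, at 2.08-fold in the main setting. The dimmer Bcl2l11 probe detected on all 3 arrays differed by -0.84, short of 2-fold. Set against the median of all genes under the same setting, Bcl2l11 ran from -1.06 to -0.86, on both sides of 2-fold. Bid ran from -1.69 to -1.41 and Bcl2l1 from -1.66 to -1.20. At a size of 1.5-fold, chosen after seeing the data, 2 of 8 members passed in CCC minus PCC (0 at 2-fold), 2 in CCC minus MCC (1 at 2-fold) and 4 in MCC minus PCC (3 at 2-fold), against 24.7%, 55.4% and 56.6% of all genes. Without normalization between arrays 4 of 8 passed in CCC minus MCC, where 49.1% of all genes did and their median was 0.83, against -0.01 with it. Of all genes past 2-fold in MCC minus PCC 40.2% were higher, and 14.7% without normalization, while in CCC minus PCC these were 57.4% and 82.4%. In CCC minus MCC they were 49.0% and 88.1%. The count of genes at least 2-fold lower on CCC than on PCC was 268. It was 156 with an offset of 50, 158 without background correction and 121 without normalization. The pro-survival minus pro-death gap in MCC minus PCC was 0.63. This gap was 0.13 under 75th percentile scaling and without normalization, whose gaps are equal by construction. In CCC minus MCC it was 0.23, 0.53 under those same settings, and -0.45 with the mean of detected probes, by which Bcl2 takes in its NM_177410 probes. The gap rests on 3 pro-survival genes. Over pro-death genes detected on both arrays, the pro-death median was the value of the dim Bak1 probe in every pair. No paired analysis was possible because each group has 1 array. Leaving out an array would remove its group. Dim probes (Bak1, Pmaip1 and all but the brightest probe of Bcl2l1) limit their sizes.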
